A study of Mus musculus with 35 samples.

Results

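Monocytic myeloid-derived suppressor cells (M-MDSC) from the pancreatic tumors of mice treated with poly(I:C) were compared with M-MDSC from the spleens of mice given the same treatment. The comparison used every M-MDSC library of a treated mouse with at least 1000 counts, which left 3 libraries from tumor and 4 from spleen, 7 of the 35 samples deposited in the series. An eighth library, from tumor, held 10 counts and was left out. All mice were female C57BL/6, 6 to 12 weeks old, with an orthotopic tumor of T110299, a cell line derived from a pancreatic tumor of the KPC mouse, a genetically engineered model of pancreatic cancer. Treated mice received 50 µg of high molecular weight poly(I:C), a synthetic double-stranded RNA, complexed with in vivo-jetPEI, into a vein on days 18 and 20 after tumor induction. Untreated mice were the controls, for which the labels name glucose. Cells positive for CD11b were enriched on magnetic columns and then sorted by flow cytometry as live Ly6C-high, Ly6G-negative cells. Each library is 1 sort of many cells, so fewer cells of a type and less RNA per cell cannot be told apart. The tumor samples come from the transplanted line in the pancreas and are a model with 1 line of origin, and the spleens are of mice that bore these tumors. The sample titles carry the same numbers in both compartments, so tumor and spleen libraries can come from the same animals, but the count columns do not carry these numbers and the groups were fitted as unpaired.

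M-MDSC are immature myeloid cells of the monocytic branch that expand in mice and patients with cancer. They resemble Ly6C-high inflammatory monocytes, leave the bone marrow and gather in spleen and tumor, where they restrain T cells through amino acid depletion, nitric oxide, prostaglandins and inhibitory ligands. In tumors they are known to give rise to tumor-associated macrophages, while the spleen acts as a reservoir of monocytes. Poly(I:C) is sensed by MDA5 and TLR3 and sets off type I interferon production.

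The 7 libraries held between 2261063 and 4357105 counts assigned to genes, with 16814 to 21122 genes detected. Levels are given as CPM, a gene's counts relative to all counts of its library, in the order 16, 28 and 32 for the tumor libraries and 10, 14, 26 and 30 for the spleen libraries, the running numbers of the deposited columns. Tumor library 28 went against its Ly6C-high label. It held 2.98 CPM of Ly6c2, which encodes the antigen of the sort, where the 14 other M-MDSC libraries of the series held 40.3 to 1014. The monocyte genes Vcan, Chil3 and Plac8 were at 9.18, 8.26 and 10.8 CPM in it, against at least 229.9, 224 and 182 CPM in each of the 14 others. Spleen library 30 stood apart through lymphocyte RNA, with a summed 22489 CPM of B and plasma cell markers against 512 to 897 in the other spleen libraries, and 368 CPM of T and NK cell markers against 17.4 to 22.7. Where leaving out 1 of the 7 libraries moved a called fold printed here by over 1.5 times, the value without it is given beside it.

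In treated mice, most chemokines and most immediate early and heat shock genes that were tested, and part of the matrix and macrophage genes, were higher in tumor M-MDSC than in spleen M-MDSC. Among the 9026 genes that averaged 25 or more counts, 424 were higher and 50 were lower in tumor at an adjusted p below 0.05 and at least a 2-fold difference (edgeR's quasi-likelihood test with Benjamini-Hochberg adjustment). That is 4.7% of genes tested higher and 0.554% lower, 5.25% in all. Of the 474 genes, 471 had tumor and spleen libraries that did not overlap. Over all genes tested, 941 (10.4%) lay above and 846 (9.37%) below without overlap. An unadjusted p below 0.05 was reached by 2102 genes. The median log2 fold change of all genes tested was −0.01, so the folds below are read against a centre near 0.

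Without tumor library 28, 303 genes (3.47% of 8722) were higher and 37 (0.424%) lower. Of the 424 genes called higher with all libraries, 264 were called again, 62.3% of the full list and 87.1% of the shorter one. The direction held for each of the 359 higher and 50 lower genes that could be tested without that library. Almost all called genes had libraries that did not overlap, so this could hardly come out otherwise and is no further support. Without spleen library 30, 395 genes (4.37% of 9045) were higher and 68 (0.752%) lower, of which 329 and 38 were also called with all libraries. Leaving out spleen library 10, 14 or 26 gave 228, 266 and 295 called genes in all in place of 474. Of the 78 named genes that were called, 41 kept their call in all 7 fits that left out 1 library and 32 lost it in at least 1. The other 5 (Hilpda, Folr2, Mmp12, Trf and C1ra) kept it where they were tested, in 5 or 6 of the 7 fits. At the stricter threshold that the study set, an adjusted p below 0.001 and 2-fold, 17 genes (0.188%) were called, each higher in tumor. DESeq2 at that threshold called 368 genes higher and 43 lower. The 17 genes include the chemokines Ccl7 and Ccl12, the complement receptor C3ar1, cyclooxygenase-2 (Ptgs2), the amino acid transporter Slc7a2, and the early response genes Egr2, Nr4a2, Nr4a3, Fosb and Btg2.

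**Figure D1:**
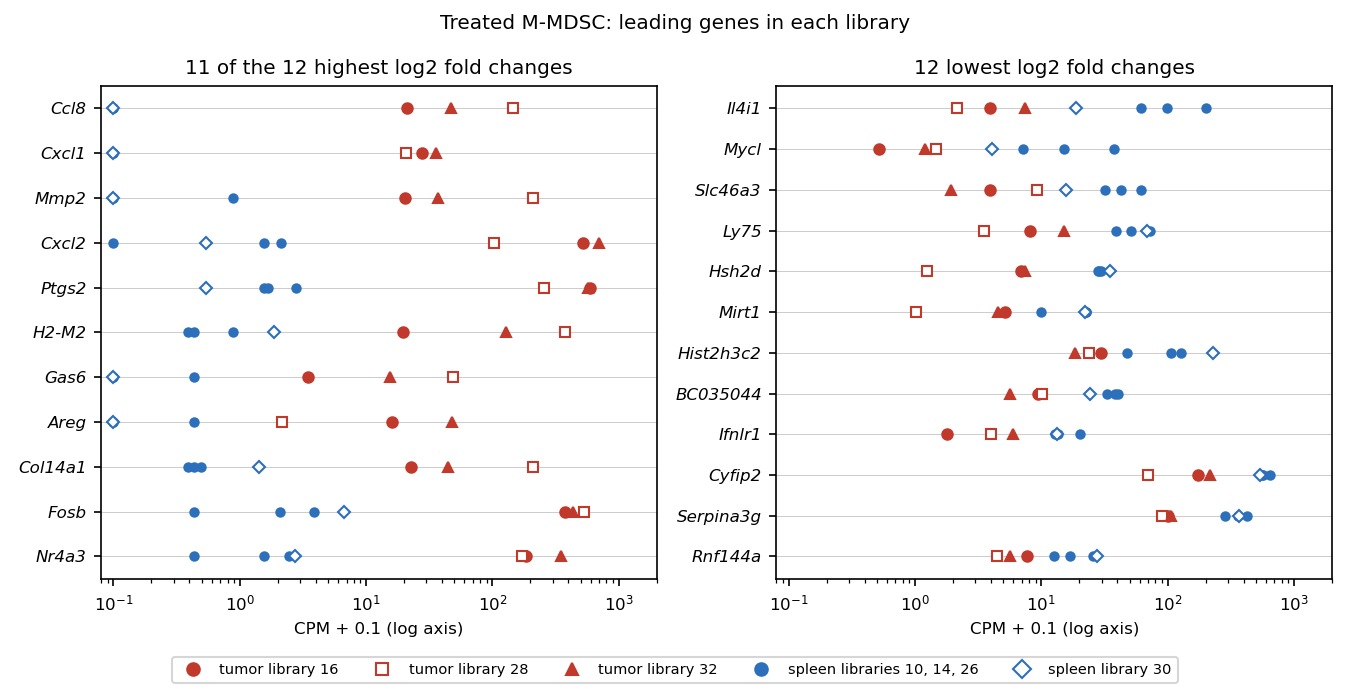
Level of 11 of the 12 genes with the highest and of the 12 with the lowest log2 fold change, with 1 symbol per library on a log axis of CPM + 0.1 (tumor in 1 colour with library 28 as an open square, spleen in the other with library 30 as an open diamond). In each of the 23 rows the 3 tumor libraries lie on 1 side of the 4 spleen libraries, from Ccl8 with 21.1 to 145 CPM in tumor and 0 in spleen to Il4i1 with 2.07 to 7.37 CPM in tumor and 18.6 to 201 CPM in spleen.

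The 12 genes with the highest fold change include Ccl8, Cxcl1, Mmp2, Cxcl2, Ptgs2, H2-M2, Gas6, Areg, Col14a1, Fosb and Nr4a3. These 11 encode chemokines (Ccl8, Cxcl1, Cxcl2), matrix proteins (Mmp2, Col14a1), secreted ligands (Gas6, Areg), transcription factors (Fosb, Nr4a3), cyclooxygenase-2 (Ptgs2) and a nonclassical MHC class I chain (H2-M2). Gas6 and Areg, each with 1 count in spleen, lost their call without spleen library 10, 14 or 26, at adjusted p-values of up to 0.0847 and 0.114. Promoters in the RefSeq table (GRCm38.p6, 250 bases before to 50 after the start site) were found for 9 of the 12. The sequences below are shown for the neutrophil chemokines Cxcl1 and Cxcl2, which hold the NF-kappaB motif, and for Areg and the early gene Btg2, which hold the cyclic AMP response element. Btg2 is not among the 12 highest genes, and each gene shown holds the motif it is shown for. Capitals mark matches on either strand to the kappaB motif (GGG, any 2 bases, then TTTCC) or to TGACGTCA (CRE). They are printed 5′ to 3′ on the gene's strand, at chr5:90890995-90891294 plus strand for Cxcl1, chr5:90903649-90903948 plus strand for Cxcl2, chr5:91139349-91139648 plus strand for Areg and chr1:134079106-134079405 minus strand for Btg2.
Cxcl1: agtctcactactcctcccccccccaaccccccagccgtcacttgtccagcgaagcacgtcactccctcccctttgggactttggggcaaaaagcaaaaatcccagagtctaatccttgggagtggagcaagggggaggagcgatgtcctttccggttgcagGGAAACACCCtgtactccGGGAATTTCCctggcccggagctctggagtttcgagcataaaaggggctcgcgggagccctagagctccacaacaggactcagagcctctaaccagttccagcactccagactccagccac
Cxcl2: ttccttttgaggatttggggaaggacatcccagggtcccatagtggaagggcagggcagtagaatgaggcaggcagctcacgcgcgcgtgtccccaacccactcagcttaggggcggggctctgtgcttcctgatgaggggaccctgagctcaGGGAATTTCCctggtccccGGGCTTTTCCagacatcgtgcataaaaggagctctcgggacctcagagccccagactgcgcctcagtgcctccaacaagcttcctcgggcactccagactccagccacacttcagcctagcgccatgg
Areg: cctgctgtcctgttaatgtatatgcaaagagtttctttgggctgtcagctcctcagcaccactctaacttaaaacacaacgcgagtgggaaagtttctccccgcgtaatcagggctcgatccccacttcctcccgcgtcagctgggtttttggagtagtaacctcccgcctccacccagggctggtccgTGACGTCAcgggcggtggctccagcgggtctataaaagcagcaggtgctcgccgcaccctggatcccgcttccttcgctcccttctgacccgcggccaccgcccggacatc
Btg2: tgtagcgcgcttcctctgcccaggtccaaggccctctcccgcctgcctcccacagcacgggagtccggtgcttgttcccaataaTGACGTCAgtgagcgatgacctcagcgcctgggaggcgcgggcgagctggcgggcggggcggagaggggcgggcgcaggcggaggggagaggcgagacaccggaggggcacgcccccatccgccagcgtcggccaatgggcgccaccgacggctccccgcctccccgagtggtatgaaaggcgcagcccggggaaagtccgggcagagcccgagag
The kappaB letters start 89 and 71 bases before the start site of Cxcl1 and 97 and 78 bases before that of Cxcl2. The CRE starts 61 bases before the start site of Areg and 166 before that of Btg2. Of 32851 mouse promoters of the same length, 1.63% hold the kappaB letters and 1.79% the CRE letters. Of the 9 leading promoters, 2 hold kappaB, 1 holds the CRE and 2 hold TATAAA, the letters of a core promoter box found in 13.6% of all promoters. The letters of AP-1, TGANTCA, are in 7.81% of all promoters and were not matched in these 9 windows, which says only that they are not in this window. A match is a description of letters, not a bound site.

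Chemokines that draw monocytes and neutrophils were higher in tumor nearly throughout. Among the CC chemokines, 8 of 9 tested members rose in tumor and none fell, with a median log2 fold change of 3.06. Among the CXC chemokines, 6 of 7 rose, with a median of 5.18 (6.20 without spleen library 10), and 4 rose without tumor library 28 or without spleen library 10, 14 or 26. The monocyte chemoattractants Ccl2, Ccl7, Ccl8 and Ccl12 and the neutrophil chemoattractants Cxcl1 and Cxcl2 were at low levels or absent in spleen.

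Ccl7 (ENSMUSG00000035373.2, chr11:82045712-82047525), which encodes monocyte chemoattractant protein-3, was at 92.7, 146 and 136 CPM in the tumor libraries and 0.789, 0.291, 2.03 and 0.442 CPM in the spleen libraries. Each tumor library was far above each spleen library. The log2 fold change was 7.13 ± 0.43 (SE), with an adjusted p of 0.000437 (edgeR's quasi-likelihood test), and 0.000631 without tumor library 28. Without spleen library 26 it was 7.95. Ccl2, monocyte chemoattractant protein-1 and the main ligand of CCR2, was at 321, 120.3 and 213 CPM in the tumor libraries and 8.28, 11.4, 21.9 and 9.29 CPM in the spleen libraries, a log2 fold change of 4.16 ± 0.45 (SE; adjusted p = 0.00239). Its lowest tumor value, in library 28, was still above its highest spleen value, in library 26. Ccl8 (ENSMUSG00000009185.2, chr11:82115185-82116799), monocyte chemoattractant protein-2, was at 21.1, 145 and 47.2 CPM in tumor and gave no count in any spleen library. Against a floor of 3 counts over the spleen group, its 811 tumor counts make it at least 320.4-fold higher (adjusted p = 0.0188; 0.0547 without spleen library 14). Library 28 held most of these counts, and without it the remaining 178 make it at least 131-fold higher (adjusted p = 0.0115). Ccl12 had a log2 fold change of 4.38 ± 0.36 (SE; adjusted p = 0.000984). The macrophage inflammatory proteins Ccl3, Ccl4, Ccl6 and Ccl9 also rose, by 3.06, 2.52, 1.75 and 1.71 on the log2 scale. Ccl5, a T cell attractant, was the member that did not pass, at a log2 fold change of 1.22 (adjusted p = 0.223). Without spleen library 30, Ccl4, Ccl6 and Ccl9 had adjusted p-values of 0.0542, 0.055 and 0.0551 and 5 CC members were called. Ccl4 lost its call in 5 and Ccl6 and Ccl9 in 6 of the 7 fits that left out 1 library. The count was also 5 without tumor library 32 or without spleen library 10, 14 or 26.

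Cxcl2 (ENSMUSG00000058427.10, chr5:90903871-90905938), a ligand of the neutrophil receptor CXCR2, was at 519, 103 and 695 CPM in the tumor libraries and 0, 1.46, 2.03 and 0.442 CPM in the spleen libraries. Library 28 held the lowest tumor level, and the groups did not overlap. The log2 fold change was 8.71 ± 0.89 (SE; adjusted p = 0.00195). Cxcl1 (ENSMUSG00000029380.11, chr5:90891241-90893115), another CXCR2 ligand, was at 27.4, 20.7 and 35.7 CPM in tumor with no spleen count, and its 252 tumor counts make it at least 99.6-fold higher (adjusted p = 0.00242). Pf4, platelet factor 4, had 450 tumor counts against 3 in spleen, a ratio of 178 with an exact 95% counting interval of 60.4 to 865. It was 109 (36.7 to 536) without tumor library 28 and 413 (73.7 to 16330.0) without spleen library 10. The 5 other platelet and megakaryocyte markers summed to 1.26 to 9.58 CPM in tumor and 1.69 to 6.63 CPM in spleen, and these ranges overlapped. Cxcl16 rose by 4.22 and Cxcl13, a B cell attractant, by 5.18 on the log2 scale. Cxcl16 was at 3.20 without tumor library 28 and lost its call without spleen library 10 or 26. Cxcl13 was at 6.20 without spleen library 10 and lost its call without spleen library 14. Cxcl9, a ligand of CXCR3 made in response to interferon gamma, had a log2 fold change of 2.57 (adjusted p = 0.0414) whose call was lost without tumor library 28 or 32 or spleen library 10, 14 or 26, at an adjusted p of up to 0.136. Cxcl10, the other CXCR3 ligand tested, was at 161, 72.3 and 294 CPM in the tumor libraries and 159, 513, 299 and 127 CPM in the spleen libraries. Its groups overlapped, and the log2 fold change was −0.59 (adjusted p = 0.594).

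Of the chemokine and chemoattractant receptors, 4 of 11 tested rose. C3ar1, the receptor for complement fragment C3a, was at 308, 742 and 316 CPM in the tumor libraries and 20.5, 21, 20.6 and 20.3 CPM in the spleen libraries. The 4 spleen values were nearly the same and the tumor values were all at 308 CPM or more (log2 fold change 4.54 ± 0.35 (SE), adjusted p = 0.000683). Ccrl2, which presents chemerin, rose by 2.76, and Cxcr4, the receptor of Cxcl12, by 2.06 on the log2 scale. The Cxcr4 call was lost without spleen library 10. Ccr2, the receptor through which monocytes follow Ccl2, was at 491, 34.7 and 55.3 CPM in the tumor libraries and 316, 169, 202 and 90.2 CPM in the spleen libraries. Tumor library 16 held the highest level of all 7 and libraries 28 and 32 the lowest, so the groups overlapped (log2 fold change 0.08, adjusted p = 0.97).

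Enzymes by which myeloid cells restrain T cells were higher in tumor for some members and not for others. Of 17 tested members of the T cell suppression list, 4 rose, Ptgs2, Slc7a2 and Nos2 among them, Il4i1 fell and 12 did not pass. Ptgs2 (ENSMUSG00000032487.8, chr1:150100031-150108227), which encodes cyclooxygenase-2 of prostaglandin synthesis, was at 588, 255 and 576 CPM in the tumor libraries and 1.58, 1.46, 2.7 and 0.442 CPM in the spleen libraries. No spleen library came near the lowest tumor value (log2 fold change 8.25 ± 0.51 (SE), adjusted p = 0.000437). Slc7a2, the arginine transporter of activated macrophages, was at 40.9, 57.4 and 31.7 CPM in the tumor libraries and 0.789, 1.46, 1.35 and 2.21 CPM in the spleen libraries, with a log2 fold change of 4.95 ± 0.35 (SE; adjusted p = 0.000632). Nos2, inducible nitric oxide synthase, was at 40.4, 15.6 and 40.2 CPM in the tumor libraries and 1.97, 1.46, 2.03 and 9.29 CPM in the spleen libraries, and its log2 fold change was 3.25 ± 0.65 (SE; adjusted p = 0.0259), or 4.19 without spleen library 30. That call was lost, at an adjusted p of up to 0.0952, without tumor library 16 or 32 or spleen library 10, 14 or 26. Cd274, which encodes the inhibitory ligand PD-L1, was at 235, 206 and 286 CPM in the tumor libraries and 142, 191, 209.7 and 131 CPM in the spleen libraries. The tumor range began just below the highest spleen library, and the difference did not pass (log2 fold change 0.59 ± 0.23 (SE), adjusted p = 0.179).

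Il4i1 (ENSMUSG00000074141.13, chr7:44816387-44840809), a secreted amino acid oxidase that degrades phenylalanine, had the lowest fold change of all named genes. It was at 3.79, 2.07 and 7.37 CPM in the tumor libraries and 98.2, 201, 61.4 and 18.6 CPM in the spleen libraries. Spleen library 30 lay closest to the tumor range and spleen library 14 farthest from it. The log2 fold change was −4.42 ± 0.89 (SE; adjusted p = 0.0277), and without tumor library 28 it was −3.99 with an adjusted p of 0.118. It was −5.01 without tumor library 32 and −3.72 without spleen library 14. With 1 library left out, the call held only where that was spleen library 30.

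Of the inflammatory cytokines, 5 of 18 tested rose, namely Il1a, Il1b, Osm, Lif and Tnfsf9, with a list median of 1.43. The median was 0.90 without tumor library 28, where 6 of 17 rose. Tnfsf9 lost its call in 6 of the 7 fits that left out 1 library. Il1b, the secreted interleukin-1 beta, was at 1499, 966 and 1076 CPM in the tumor libraries and 48.1, 68.1, 33.4 and 17.7 CPM in the spleen libraries. All tumor libraries were well above all spleen libraries (log2 fold change 4.88 ± 0.47 (SE), adjusted p = 0.00175). Il1a rose by 5.92 and the IL-6 family ligands Osm and Lif by 6.06 and 5.99 on the log2 scale. These folds were 5.33 for Il1a without tumor library 32, 4.99 for Osm without tumor library 16 and 6.76 for Lif without spleen library 26. Il6 itself had a log2 fold change of 3.67 (adjusted p = 0.0537), and 4.23 without library 28 (adjusted p = 0.00258). Among NF-kappaB subunits and feedback genes, 4 of 19 rose, the inhibitors Nfkbiz, Nfkbid and Tnfaip3 and the RNase Zc3h12a, while the list median was 0.01. Tnfaip3 lost its call in 5 of the 7 fits.

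Immediate early and heat shock genes had the highest number of calls among the 27 function lists. Of 23 tested members 20 rose and none fell, with a median of 3.26, against 4.7% of all genes called higher. Fosb (ENSMUSG00000003545.3, chr7:19302696-19310051), an AP-1 subunit, was at 373, 529 and 438 CPM in the tumor libraries and 1.97, 3.78, 0.338 and 6.63 CPM in the spleen libraries. The tumor values averaged 447 ± 78.3 CPM (SD, n = 3) and the spleen values 3.18 ± 2.7 CPM (SD, n = 4), with a log2 fold change of 7.23 ± 0.59 (SE; adjusted p = 0.000947). Fos, of the same family, was at 2013, 1331 and 1646 CPM in the tumor libraries and 33.9, 31.7, 17.6 and 84.5 CPM in the spleen libraries (log2 fold change 5.41 ± 0.53 (SE), adjusted p = 0.00175). Both genes separated the groups in every library. Egr2, a zinc finger factor of macrophage activation, was at 98.2, 54.4 and 61.9 CPM in the tumor libraries and 1.58, 2.33, 4.05 and 2.65 CPM in the spleen libraries (log2 fold change 4.79 ± 0.35 (SE), adjusted p = 0.000632). Btg2, an antiproliferative early gene whose promoter is printed above, was at 956, 702 and 965 CPM in the tumor libraries and 82.4, 95.5, 75.3 and 132 CPM in the spleen libraries (log2 fold change 3.26 ± 0.25 (SE), adjusted p = 0.000683). The inducible heat shock proteins Hspa1a and Hspa1b rose by 6.69 and 6.20 (7.51 and 6.90 without spleen library 14), but these 2 genes are near-identical copies and their reads cannot be assigned with certainty. Ier2, Nr4a1 and Hspa8 did not pass, and without library 28 the count was 22 of 23. Tumor pieces were minced and dissociated with a kit on a gentleMACS device, whereas spleens were pressed through a strainer and red cells lysed. Preparation and compartment cannot be told apart for this list, nor for any other gene compared here between tumor and spleen.

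Among proteins that build or remodel the extracellular matrix, 9 of 20 tested rose and none fell, with a list median of 1.85, or 2.46 without spleen library 30. Thbs1, the secreted glycoprotein thrombospondin-1, was at 3457, 1422 and 2765 CPM in the tumor libraries and 54.4, 21.8, 30 and 91.1 CPM in the spleen libraries (log2 fold change 5.79 ± 0.58 (SE), adjusted p = 0.00178). Library 28 was the lowest of the tumor libraries and lay far above spleen. Mmp2 (ENSMUSG00000031740.8, chr8:92827291-92853420), the gelatinase A, was at 20.2, 209.8 and 36.8 CPM in tumor, with library 28 the highest, and only 2 counts were found in spleen. The ratio was 629 with an exact 95% counting interval of 174 to 5203 (adjusted p = 0.00786; 0.0789 without spleen library 10). Without library 28 the ratio was 163 (44.3 to 1357; adjusted p = 0.00334), and without spleen library 10, which held both spleen counts, it was at least 325-fold. Fibroblasts make this enzyme as well, and a fibroblast marker list summed to 21.3 to 94.3 CPM in the tumor M-MDSC, 6.11 to 19.9 CPM in the spleen M-MDSC and 1194 to 1435 CPM in bulk tumor. Its part in the Mmp2 value was not tested. Timp2, Mmp12, Mmp13, Adam8, Serpinb2 and Tgm2 also rose. Tgm2 lost its call without tumor library 32 or spleen library 10 or 14, Adam8 and Serpinb2 lost theirs in 5 of 7 fits, and 5 members of the list were called without spleen library 10.

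About as many macrophage genes were called higher as were not, and library 28 held the highest tumor level for most of them. All 29 tested members of the tumor-associated macrophage list had a positive log2 fold change. An unadjusted p below 0.05 in edgeR's quasi-likelihood test was reached by 24, and DESeq2 called 19 higher. Of 29 tested members of the tumor-associated macrophage list, 15 rose and none fell, with a median of 2.37. Without library 28, 11 of 26 rose, with a median of 1.76, and without spleen library 14 the count was 9. Of the 29, 21 had their highest tumor level in library 28 and 4 (Spp1, Lgals1, Lgals3 and Cd9, none of them called) their lowest. Among Fc receptors and complement, 9 of 18 rose, and 6 of 17 without library 28.

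Apoe (ENSMUSG00000002985.16, chr7:19696109-19699188), the lipid carrier apolipoprotein E, was at 3427, 20548 and 7353 CPM in the tumor libraries and 217, 116, 70.9 and 242 CPM in the spleen libraries. Library 28 held the highest level and library 16 the lowest in tumor, and all tumor values exceeded all spleen values. The log2 fold change was 6.10 ± 0.73 (SE; adjusted p = 0.00332), and 5.14 (adjusted p = 0.00334) without library 28. C1qa, a chain of complement C1q made by macrophages, was at 380.5, 2192 and 961 CPM in the tumor libraries and 22.5, 17.2, 31.1 and 46 CPM in the spleen libraries, with a log2 fold change of 5.42 ± 0.63 (SE; adjusted p = 0.00301) and 4.61 without library 28. Mrc1, the mannose receptor CD206, was at 268, 1175 and 488 CPM in the tumor libraries and 6.71, 2.04, 4.73 and 18.1 CPM in the spleen libraries, with a log2 fold change of 6.48 ± 0.79 (SE; adjusted p = 0.00353) and 5.71 without library 28 or 7.26 without spleen library 30. All of these genes kept the order 28, 32, 16 within tumor. Adgre1, which encodes F4/80, was at 267, 925 and 396 CPM in the tumor libraries and 134, 118, 182 and 159 CPM in the spleen libraries (log2 fold change 1.91 ± 0.40 (SE), adjusted p = 0.0311). Without library 28, its highest tumor library, the log2 fold change was 1.24 (adjusted p = 0.0304). Its call was lost without tumor library 32 or any 1 of the 4 spleen libraries, at an adjusted p of up to 0.113. Folr2, the folate receptor of resident macrophages, had 219 tumor counts against 2 in spleen, a ratio of 130 with an exact 95% counting interval of 35.5 to 1078. Trem2, a lipid receptor, Stab1, a scavenger receptor, and the C1q chains C1qb and C1qc rose by 3.33, 4.68, 4.22 and 4.72 on the log2 scale, and without library 28 the last 3 rose by 3.94, 3.59 and 3.81. Folr2, Trem2 and Mmp12 fell below the count minimum without library 28. A separate list of mature macrophage markers summed to 2627, 9829 and 5068 CPM in the tumor libraries and 678 to 1134 CPM in spleen, with 7 of its 12 tested members higher in tumor. In untreated mice that sum was 1841 to 2647 CPM in tumor M-MDSC and 429 to 532 CPM in spleen M-MDSC. The part of such cells in the values of this paragraph was not tested.

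**Figure D2:**
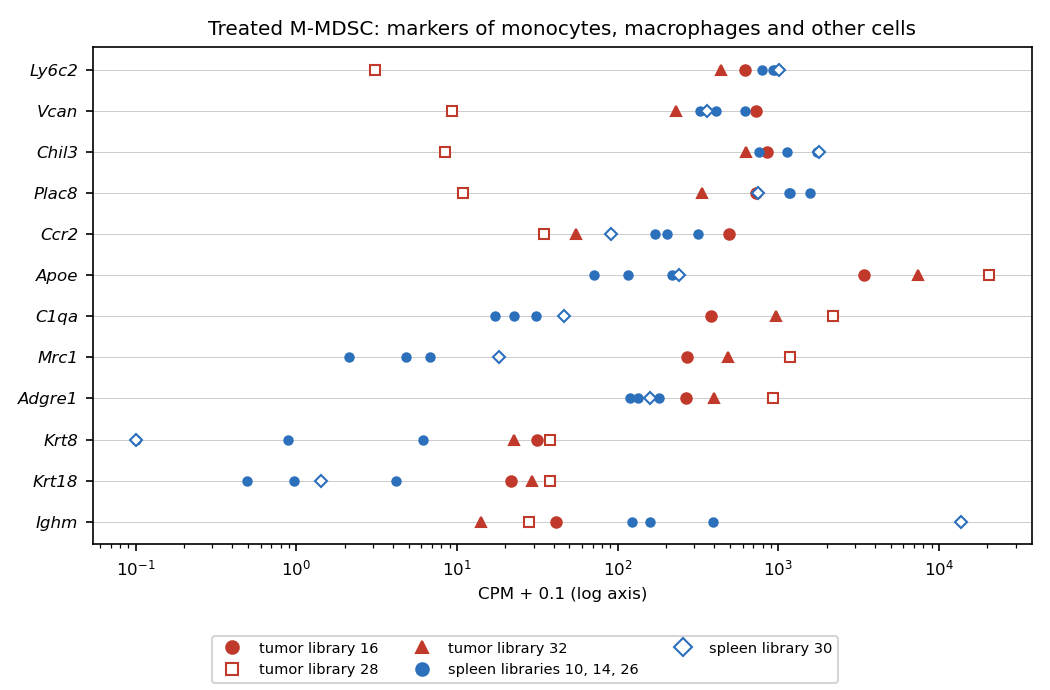
Level of monocyte, macrophage and other marker genes in the 7 libraries, with 1 symbol per library on a log axis of CPM + 0.1. Tumor library 28 (open square) is the lowest for Ly6c2, at 2.98 CPM, and the highest for Apoe, at 20548 CPM, and spleen library 30 (open diamond) stands alone for Ighm, at 13625 CPM.

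Identity genes of classical monocytes did not pass as a group. None of 20 tested members was called by edgeR's quasi-likelihood test. An unadjusted p below 0.05 was reached by 2, and DESeq2 called 1 higher. With 1 library left out, edgeR called 1 higher without spleen library 30 and 1 lower without tumor library 16. Ly6c2 was at 622, 2.98 and 443 CPM in the tumor libraries and 785, 953, 924 and 1014 CPM in the spleen libraries. The tumor values lay below all spleen values, with libraries 16 and 32 close to the spleen range and library 28 apart (log2 fold change −1.29, adjusted p = 0.531). Of 14 tested genes of patrolling monocytes 2 fell, the sialomucin Spn and the integrin Itgal. Spn was at 127, 106 and 129 CPM in the tumor libraries and 308, 277, 372 and 266 CPM in the spleen libraries, without overlap (log2 fold change −1.26 ± 0.19 (SE), adjusted p = 0.00929). Itgal had a log2 fold change of −1.56 (adjusted p = 0.039) and an adjusted p of 0.0931 without library 28. Its call was also lost without tumor library 32 or spleen library 10, 14 or 26. In the list, 3 members were called lower without tumor library 16 or spleen library 30, and 1 was called higher without tumor library 16 or 28. Neutrophil markers summed to 258 to 1291 CPM in tumor and 1083 to 6590 CPM in spleen. The 12 epithelial markers summed to 115 to 230.0 CPM in tumor and 148 to 1013 CPM in spleen. Lcn2, which neutrophils also make, took most of the spleen sums, at 686, 142, 132 and 991 CPM in spleen and 138, 2.75 and 136 CPM in tumor. Krt8 and Krt18 were at 31.2, 37.9 and 22.5 and 21.5, 37.9 and 29.1 CPM in tumor and at no more than 6.08 and 4.05 CPM in spleen, while Cldn4 and Cldn7 had no count in the 7 libraries. The 14 pancreatic acinar markers, digestive enzymes of the surrounding organ, summed to 9.27 to 29.8 CPM in tumor, 0 to 1.16 CPM in spleen and 6.63 to 51.1 CPM in bulk tumor. All 14 had counts in the tumor libraries, at no more than 9.18 CPM each, and 11 had none in spleen. None of the 14 reached the count minimum of the test, and their part in the results was not tested.

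Hypoxia-responsive genes were called higher in part, and glycolytic enzymes hardly. Of 15 tested members of the hypoxia list 5 rose (Vegfa, Bnip3, Hilpda, Slc2a1 and Hif1a), with a median of 0.94, and 3 were called without spleen library 10 or 26. Vegfa (ENSMUSG00000023951.17, chr17:46016993-46032369), the vascular endothelial growth factor, was at 241, 330.5 and 236 CPM in the tumor libraries and 7.49, 2.62, 1.69 and 21.2 CPM in the spleen libraries. Spleen library 30 was the highest of the spleen libraries and lay far below tumor. The log2 fold change was 5.17 ± 0.71 (SE; adjusted p = 0.00622), and 6.21 (adjusted p = 0.0024) without that library. Bnip3, a mitophagy receptor, and Hilpda, a lipid droplet protein, rose by 2.20 and 4.10 on the log2 scale, and Hilpda by 5.11 without spleen library 30. Hif1a lost its call in 5 and Slc2a1 in 2 of the 7 fits. Of 17 glycolytic genes only Tpi1, triosephosphate isomerase, passed, at a log2 fold change of 1.09 ± 0.16 (SE; adjusted p = 0.00775), and the list median was 0.43. Without tumor library 16 its fold was under 2 and none was called, and without tumor library 28 the count was 2. Of the 15 hypoxia genes, 14 had a positive log2 fold change, 10 at an unadjusted p below 0.05. In untreated mice 12 of 16 hypoxia and 11 of 17 glycolytic genes were called higher, with medians of 1.85 and 1.54. For 2 glycolytic genes, Tpi1 among them, the interaction described below was smaller in treated mice (Tpi1 adjusted p = 0.0458; 0.093 without tumor library 28).

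Pattern recognition, lysosome, iron, lipid and stress lists gave smaller counts. These counts, and the others in this paragraph, stand beside 4.7% of all genes tested that were called higher and 0.554% lower. Of 21 Toll-like receptors and C-type lectins 5 rose (Cd14, Tlr2, Tlr4, Tlr8 and Clec4d). Cd14, the lipopolysaccharide co-receptor, was at 648, 245 and 559 CPM in the tumor libraries and 18.5, 16.9, 19.6 and 40.7 CPM in the spleen libraries, with a log2 fold change of 4.43 ± 0.44 (SE; adjusted p = 0.00178). Of 13 lysosomal proteases 2 rose (Ctsl and Lgmn), and of 13 iron and heme genes 3 rose (Trf, Fth1 and Cd163). Of 14 sterol genes 2 rose (Abca1 and Insig1), of 15 lipid storage genes 2 (Hilpda and Dgat1) and of 15 genes of the unfolded protein and amino acid stress response 4 (Atf3, Ppp1r15a, Slc3a2 and Slc7a11). Of 21 myeloid transcription factors 5 rose, among them the early factor Egr2, Klf6, Hif1a and the macrophage factor Maf. Of 19 integrins and adhesion genes 3 rose (Itga6, Vcam1 and Itgb5) and Itgal fell, and of 18 growth factor receptors 2 rose (Il10rb and Tgfbr2). Most of these counts fell when 1 library was left out. Without spleen library 10 they were 2 for pattern recognition, 1 for iron, 0 for sterol, 2 for the stress response, 3 for transcription factors, 1 for adhesion and 0 for growth factor receptors. Without tumor library 32 the lipid storage count was 0. When each library was left out in turn, Tlr8, Fth1, Dgat1, Il10rb, Tgfbr2, Slc7a11 and Maf lost their call in 5 of 7 fits, Insig1 and Tlr4 in 6 of 7, Clec4d in 4 of 7 and Cd163 in 4 of 6. Abca1 and Ppp1r15a lost it without spleen library 10, Slc3a2 without spleen library 14, and Vcam1 and Itgb5 without either.

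Interferon-stimulated genes, which poly(I:C) is known to induce, leaned to the spleen side without passing the test. Of 46 tested members 45 had a negative log2 fold change, 22 of them at an unadjusted p below 0.05, and the median was −0.69. Only Irgm2 was called, an interferon-inducible GTPase. It was at 71.2, 78 and 75.5 CPM in the tumor libraries and 125, 214, 179 and 137 CPM in the spleen libraries, without overlap (log2 fold change −1.06 ± 0.23 (SE), adjusted p = 0.0383; adjusted p = 0.0743 without library 28). The call was lost without any 1 library other than spleen library 30, where 2 members were called lower. Mx1, an antiviral GTPase, was at 219, 84.5 and 218 CPM in the tumor libraries and 455, 849.8, 535 and 344 CPM in the spleen libraries (log2 fold change −1.59, adjusted p = 0.0788), with library 28 the lowest of all. Ifit1 and Isg15, further antiviral effectors, had log2 fold changes of −1.59 and −0.99 (adjusted p = 0.137 and 0.298). Tumor and spleen did not overlap for 17 of the 46, all lower in tumor, beside 9.37% of all genes. Without library 28 the list median was −0.49 and no member was called. DESeq2 called 6 members lower.

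The lists of antigen presentation and cell cycle genes gave no calls with all 7 libraries. None of 7 tested MHC class II genes passed in edgeR's quasi-likelihood test, with 4 at an unadjusted p below 0.05 and 4 called higher by DESeq2. H2-Ab1, a class II chain, was at 186, 836 and 100.2 CPM in the tumor libraries and 72.6, 81.2, 32.4 and 67.7 CPM in the spleen libraries. Library 28 was far above the rest, and the log2 fold change was 2.64 (adjusted p = 0.0649), or 1.25 without that library. Without tumor library 32, 3 class II genes were called higher. None of the 20 tested genes of the MHC class I list passed, with 4 at an unadjusted p below 0.05, all lower, and 0 called by DESeq2. H2-M2, a class I chain outside that list, was among the 12 highest genes above, at 19.4, 375 and 127 CPM in the tumor libraries and 0.789, 0.291, 0.338 and 1.77 CPM in the spleen libraries (log2 fold change 7.90 ± 1.12 (SE), adjusted p = 0.00738). It was 6.64 without tumor library 28 and 8.54 without spleen library 30. None of 31 cell cycle genes passed, with 2 at an unadjusted p below 0.05 and 0 called by DESeq2, and the median was −0.46.

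**Figure D3:**
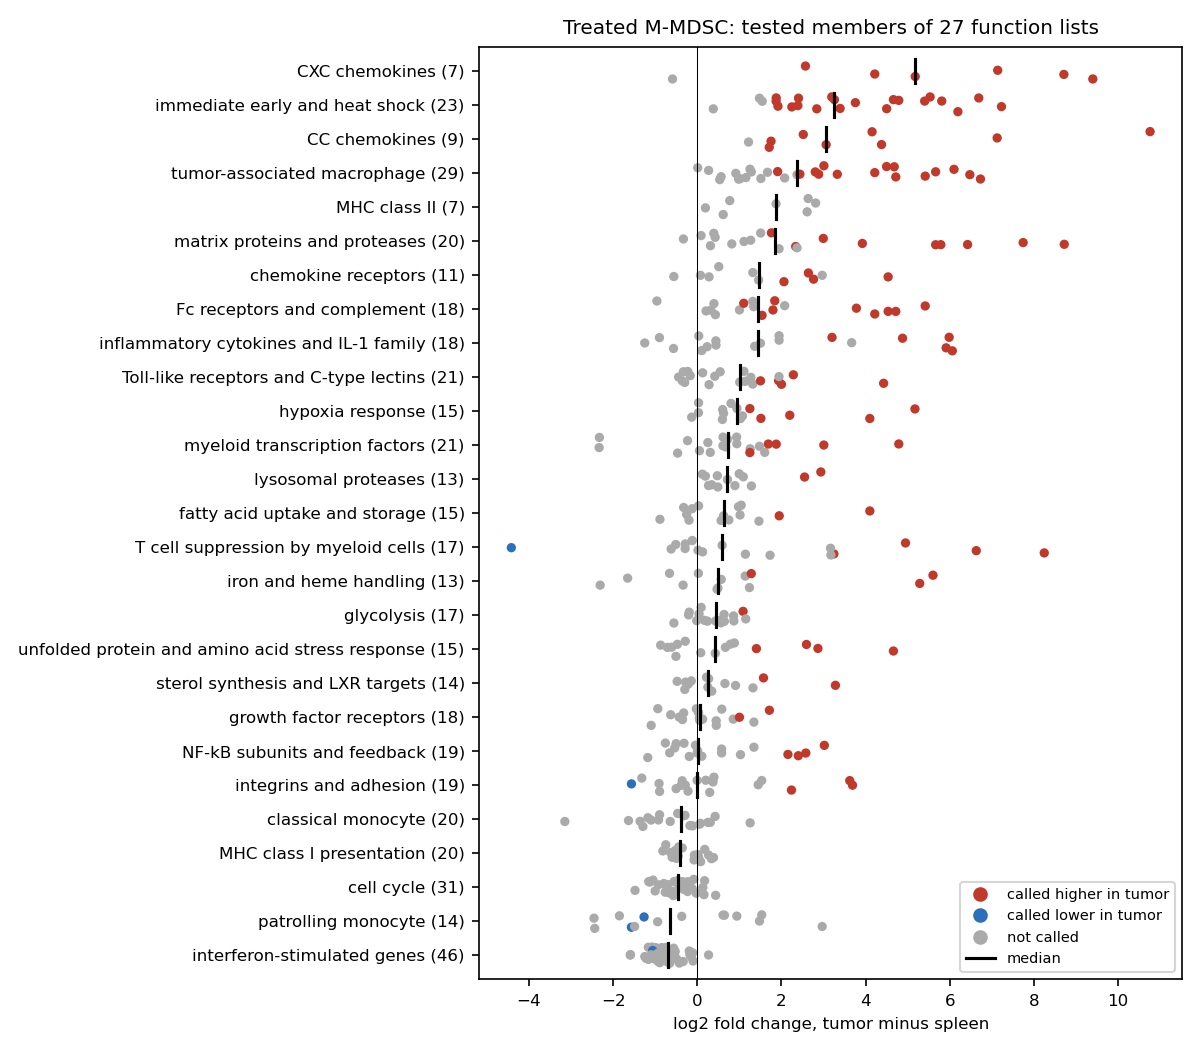
Log2 fold change (tumor minus spleen) of each tested gene in 27 function lists, with 1 point per gene, coloured by call, and a bar at each list's median; the number of tested genes follows each name. The immediate early and heat shock list sits farthest to the tumor side with CC and CXC chemokines, and the interferon-stimulated list lies to the spleen side with 1 called gene of 46.

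The 50 genes lower in tumor were of smaller fold change. The 12 with the lowest were Il4i1, Mycl, Slc46a3, Ly75, Hsh2d, Mirt1, Hist2h3c2, BC035044, Ifnlr1, Cyfip2, Serpina3g and Rnf144a. Ly75, Hsh2d, Mirt1, Ifnlr1, Cyfip2 and Rnf144a averaged higher in granulocytic MDSC than in M-MDSC from spleens of treated mice. Rnf144a was at 499 CPM there against 20.6 CPM. The rest of the 12 averaged lower there, Il4i1 at 2.28 CPM against 94.9 CPM. The part of granulocytic cells in the spleen values of this paragraph was not tested. Ly75, the endocytic receptor DEC-205, was at 8.01, 3.44 and 15.1 CPM in the tumor libraries and 71.8, 38.7, 51.3 and 69 CPM in the spleen libraries, with a log2 fold change of −2.65 ± 0.47 (SE; adjusted p = 0.0157; 0.0598 without spleen library 10), or −3.30 without tumor library 32. Serpina3g, a serine protease inhibitor of leukocytes, was at 101, 90 and 106 CPM in the tumor libraries and 284, 428, 361 and 370.2 CPM in the spleen libraries. Each group was tight and the groups lay well apart (log2 fold change −1.80 ± 0.21 (SE), adjusted p = 0.0029), with −1.72 and an adjusted p of 0.00609 without library 28. Cyfip2, a subunit of the actin-regulating WAVE complex, was at 174, 70 and 214 CPM in the tumor libraries and 573, 555, 643 and 539 CPM in the spleen libraries, with a log2 fold change of −1.85 ± 0.37 (SE; adjusted p = 0.0256). Its call was lost without tumor library 16 or spleen library 10, 14 or 26. Mycl, a Myc family transcription factor, was at 0.421, 1.38 and 1.11 CPM in the tumor libraries and 15, 37.6, 7.09 and 3.98 CPM in the spleen libraries (log2 fold change −3.86, adjusted p = 0.0493; adjusted p = 0.133 without library 28). Ifnlr1, the receptor chain for interferon lambda, had a log2 fold change of −1.86 (adjusted p = 0.0346). With each library left out in turn, Mirt1 lost its call in all 7 fits, Slc46a3, Hsh2d, Hist2h3c2, Ifnlr1 and Rnf144a in 5 of 7 and Mycl in 5 of 6, while Serpina3g kept it in all 7. The lower count depended on single libraries: it was 14, 24 and 19 without spleen libraries 10, 14 and 26, 86 without tumor library 16 and 21 without tumor library 32.

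The same comparison in untreated mice, 4 tumor and 4 spleen libraries, shares no sample with the treated one. There 699 of 8298 genes were higher in tumor (8.42%) and 446 lower (5.37%). Of the 360 genes called higher in treated mice and tested in untreated mice, 269 were called higher there too, 74.7% of the treated calls and 40.8% of the 659 untreated calls that were tested in both. Of 42 lower genes 31 were shared, 73.8% of the treated calls and 7.49% of 414 untreated calls. No gene was called in opposite directions. Across 8133 genes the log2 fold changes of both comparisons had a Pearson correlation of 0.762, and 0.817 over 8033 genes without library 28, as a description over genes that are not independent replicates.

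**Figure D4:**
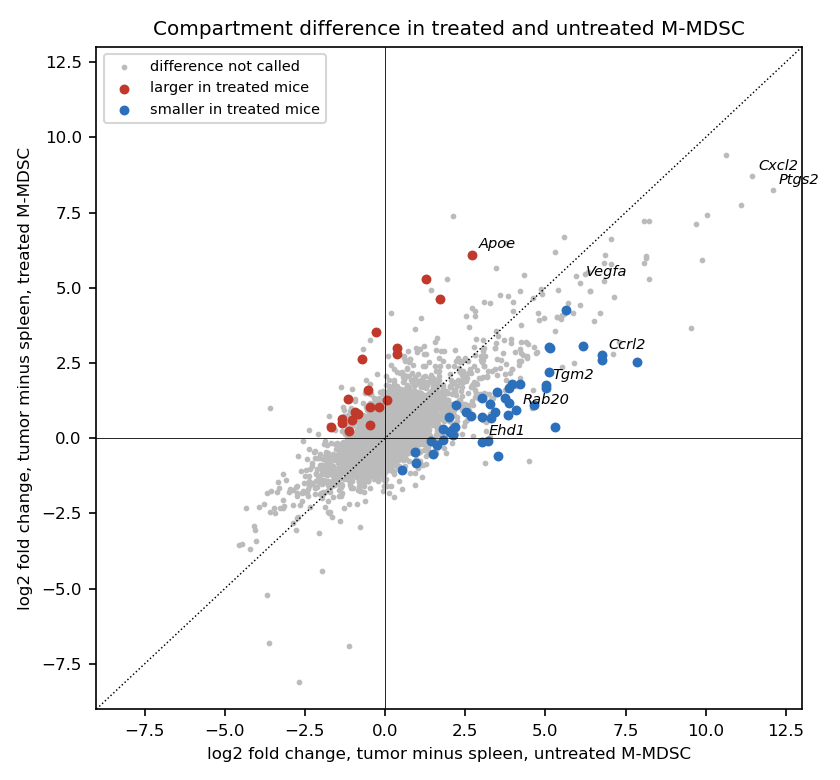
Log2 fold change (tumor minus spleen) in treated against untreated M-MDSC for 8133 genes, with 1 point per gene and the dotted line marking equality. Coloured points are the 64 genes whose compartment difference itself differed with treatment, 44 smaller and 20 larger in treated mice.

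Whether the compartment difference changed with treatment was tested as an interaction over the 15 M-MDSC libraries of treated and untreated mice. Of 8730 genes, 20 (0.229%) had a larger and 49 (0.561%) a smaller tumor-minus-spleen value in treated mice. Among the 444 called genes that were tested, 26 differed. Of the genes higher in untreated tumor, 43 had a smaller difference in treated mice, and 28 of these were not called in treated mice at all. The count of 69 genes in all depended on single libraries, from 7 without spleen library 26 to 250 without tumor library 16 of treated mice.

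The 5 genes with the smallest adjusted p in this test were Rab20, Tgm2, Ehd1, Ccnd2 and Ccrl2, all with a smaller difference in treated mice. Each kept its call under every alternative in which it was tested. Rab20, a small GTPase of phagosomes, was at 75.4, 69.1 and 81.1 CPM in the tumor libraries and 36.7, 45.7, 47.6 and 33.6 CPM in the spleen libraries in treated mice, and at 65.5 ± 12.4 CPM in tumor and 4.64 ± 1.24 CPM in spleen of untreated mice (SD, n = 4 each). The spleen libraries of treated mice all lay above the untreated spleen mean, while the tumor values lay near the untreated tumor mean (interaction −3.10 ± 0.29 (SE) on the log2 scale, adjusted p = 0.000142). Tgm2, transglutaminase 2, was at 1071, 506 and 784 CPM in the tumor libraries and 189.7, 242, 343 and 199 CPM in the spleen libraries in treated mice, against 1221 ± 275 CPM in tumor and 44.9 ± 2.9 CPM in spleen of untreated mice (interaction −3.22 ± 0.37, adjusted p = 0.00128). Ccrl2 was at 345, 171 and 437 CPM in the tumor libraries and 40.2, 67, 58.1 and 29.6 CPM in the spleen libraries in treated mice, against 375 ± 87.9 CPM in tumor and 3.9 ± 1.61 CPM in spleen of untreated mice (interaction −3.97 ± 0.52, adjusted p = 0.00249). Ehd1, an ATPase of endocytic recycling, averaged 373 ± 166 CPM in tumor and 424 ± 85.8 in spleen of treated mice, and 406 ± 96.6 and 59.2 ± 10.2 CPM in untreated mice (interaction −3.11 ± 0.39, adjusted p = 0.00209). Ccnd2, cyclin D2, averaged 214 ± 58.2 CPM in tumor and 241 ± 73 in spleen of treated mice, and 56.9 ± 9.9 and 7.22 ± 3.29 CPM in untreated mice (interaction −3.27 ± 0.42, adjusted p = 0.00209). For Ccnd2 the mean in both compartments was higher in treated than in untreated mice. Cxcl10, which overlapped between compartments in treated mice, had a log2 fold change of 3.53 in untreated mice (interaction −4.08 ± 0.74, adjusted p = 0.0302).

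Apoe was the opposite case, with a larger difference in treated mice. Untreated tumor M-MDSC averaged 3848 ± 1799 CPM and untreated spleen M-MDSC 696 ± 108 CPM (SD, n = 4 each), a log2 fold change of 2.72 against 6.10 in treated mice. The interaction was 3.42 ± 0.73 (SE; adjusted p = 0.0458), and its call was lost without library 28, at an interaction of 2.47 and an adjusted p of 0.093. The treated spleen libraries, at 217, 116, 70.9 and 242 CPM, all lay below the untreated spleen mean.

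**Figure D5:**
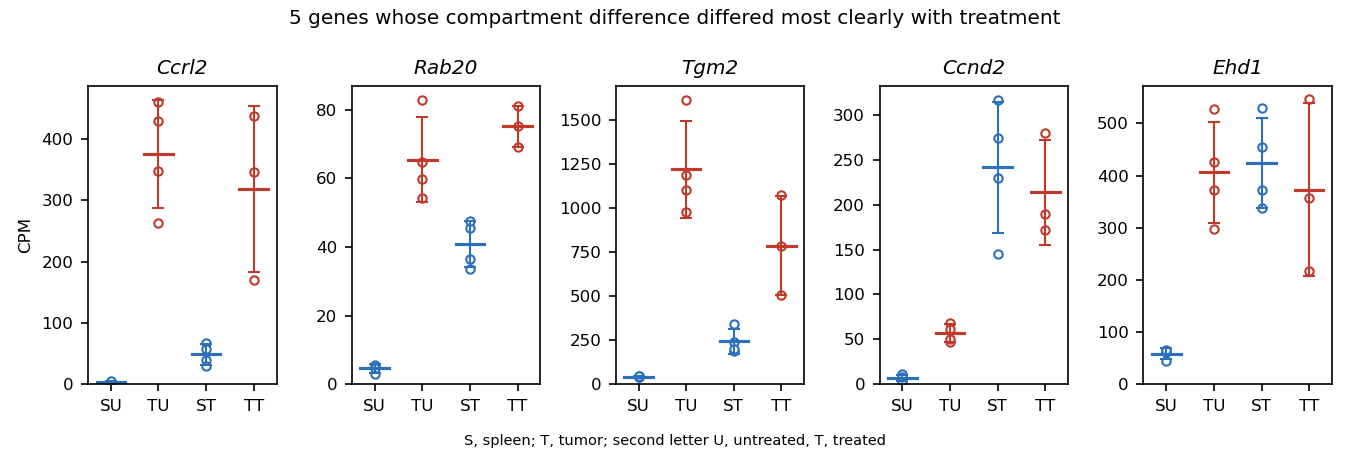
Level in CPM (linear axis from 0) of Rab20, Tgm2, Ehd1, Ccnd2 and Ccrl2 in the M-MDSC libraries of untreated and treated mice, with 1 point per library, a bar at the mean and whiskers of 1 SD for spleen (S) and tumor (T), untreated (U) and treated (T). In spleen the treated libraries of each of the 5 genes lie above the untreated ones, as for Rab20 from 4.64 CPM on average to between 33.6 and 47.6 CPM.

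The polymorphonuclear MDSC (PMN-MDSC) of treated mice, granulocytic cells sorted from tumor (4 libraries) and spleen (3 libraries), gave the test of what differed between the cell types. The tumor-minus-spleen value differed between M-MDSC and PMN-MDSC for 2685 of 8725 genes (30.8%), and for 166 of the 468 called M-MDSC genes that were tested, 62 with a larger and 104 with a smaller value in M-MDSC. The 5 with the smallest adjusted p were Pdxk, Hspa9, Nop14, Wdr43 and G3bp1. In M-MDSC their log2 fold changes were near 0, at 0.28, 0.41, 0.24, 0.12 and 0.08. In PMN-MDSC their mean level went from 0.911, 9.88, 3.26, 4.66 and 12.5 CPM in spleen to 46.3, 166, 45.3, 54 and 109 CPM in tumor. Pdxk makes active vitamin B6, Hspa9 is the mitochondrial HSP70, Nop14 and Wdr43 act in ribosome assembly and G3bp1 forms stress granules. The difference was −4.96 ± 0.46 (SE) for Pdxk and −2.61 ± 0.24 (SE) for G3bp1, each with an adjusted p of 9.97e-05. Of the 11 highest genes named above, Areg was not tested here and no other passed this interaction test. Their adjusted p-values ran from 0.175 (Cxcl2) to 0.894 (Fosb). In treated PMN-MDSC, Ptgs2 averaged 1325 CPM in tumor and 2.03 CPM in spleen, Ccl8 96.5 and 0.124 CPM, and Mmp2 63.8 and 0 CPM. The macrophage gene C1qa averaged 1058 and 7.85 CPM there.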

How the data were processed

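The deposited table holds raw read counts per gene. The authors made these counts from libraries of the SMARTer Stranded Total RNA-Seq Pico kit, depleted of ribosomal RNA and without molecular identifiers. Reads were mapped to mm10 with ContextMap and BWA and counted by strand with featureCounts (Subread 1.4.6-p3) over Gencode annotation. Pseudogene copies and near-identical genes can share reads. Symbols and coordinates (GENCODE M21, GRCm38) matched 53274 of 53379 gene identifiers.

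The fit kept genes averaging 25 or more counts in the libraries concerned and scaled libraries by TMM. Each comparison was fitted with edgeR 4.0.16 (R 4.3.3; glmQLFit, robust, two-sided quasi-likelihood F-test, limma 3.58.1) on its own groups, with Benjamini-Hochberg adjustment over all genes tested. The SE of a log2 fold change is its size divided by the square root of F. A gene was called at an adjusted p below 0.05 and a 2-fold difference; the study used 0.001 and DESeq2 (here 1.42.0 as an alternative). Levels in CPM use the library total, folds the TMM fit. Groups were taken not to overlap only where that held on both scalings. Interactions were fitted over all libraries of the 4 groups concerned. The named genes are the 12 highest and 12 lowest called genes that did not overlap and have no predicted or clone name, the 3 members of each function list with the smallest adjusted p, fixed genes (Nos2, Cd274, Vegfa, Il1b, Ccr2, Ly6c2 and Adgre1), and the 5 genes with the smallest adjusted p from each interaction. A few genes that this rule or the lists take in are not reported here, though they stay in the counts and medians. Further members of lists were named after their values were seen. The comparison, its members and the gene lists were chosen with earlier results of these data known, so they are not independent of them.

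Where spleen had no count, the fold is a lower bound against 3 counts over the group. With 1 to 3 counts, a ratio is given with its exact 95% interval, which covers counting error only. Replicate libraries were compared by a chi-square test of their counts, and no 2 libraries were identical. The p-values measure the spread between these libraries. The scripts were tested on simulated data. As alternatives, DESeq2, scaling by RLE or the upper quartile, other count filters, a fit over all 4 M-MDSC groups, a fit without robust estimates and leaving out each library were run.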

Additional observations from a re-analysis of the deposited data

Results flagged for a closer look

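Among 43 sets of spleen libraries of treated mice checked for a value far from the others, 9 held one. How often chance alone marks such a set was not worked out, and a single count can mark a set that is otherwise 0. The highest spleen value stood apart for Mmp2 at 0.789 CPM, Gas6 and Areg at 0.338 CPM each, Col14a1 at 1.33 CPM, Ifnlr1 at 20.1 CPM and Nos2 at 9.29 CPM, and the lowest for Mirt1 at 9.9 CPM. The first 3 of these values rest on 1 or 2 counts. Summed B and plasma cell markers at 22489 CPM and T and NK cell markers at 368 CPM stood apart in spleen library 30.

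The tumor-minus-spleen value differed with treatment, by the interaction test, for Ccrl2 (−3.97), Rab20 (−3.10), Tgm2 (−3.22), Ccnd2 (−3.27) and Ehd1 (−3.11), given as treated minus untreated on the log2 scale. It differed between treated M-MDSC and PMN-MDSC for Nop14 (−3.08), Hspa9 (−3.22), Pdxk (−4.96), Wdr43 (−2.95) and G3bp1 (−2.61), given as M-MDSC minus PMN-MDSC on the log2 scale.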

How the results depend on the processing

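No paired analysis was possible because the deposited columns carry a running number and no mouse number, unless libraries are matched to mice by their order. That match was not made, so whether pairing changes the results was not tested. The count of 474 genes (424 higher, 50 lower) became 808 (637, 171) with DESeq2, 869 (669, 200) in the fit over all 4 M-MDSC groups and 1560 (1147, 413) with no filter on low counts, where the median of all genes was 0.14. Leaving out 1 library gave 228 to 547 genes, 214 to 461 of them higher and 14 to 86 lower. Leaving out tumor library 28 and spleen library 30 together, an alternative chosen after seeing the data, gave 379 higher and 81 lower. The 17 genes at an adjusted p below 0.001 became 411 with DESeq2, 265 in the 4-group fit, 861 with no filter, 5 with at least 10 counts in every library, 27 without both libraries and 0 to 26 when 1 library was left out. It was 0 without spleen library 10, 14 or 30 or tumor library 16 or 32, 1 without spleen library 26 and 26 without tumor library 28. In untreated mice 1145 genes became 710 with at least 10 counts in every library. The 69 genes whose compartment difference differed with treatment became 307 with DESeq2 and 7 to 250 when 1 library was left out, with 7 without spleen library 26 of treated mice, 8 without spleen library 18 of untreated mice and 250 without tumor library 16 of treated mice. The 2685 genes that differed between M-MDSC and PMN-MDSC became 1448 with at least 10 counts in every library. The cause of these shifts was not tested. No called named gene reversed its direction, which could hardly happen where tumor and spleen libraries did not overlap. List medians near 0 did change sign. NF-kappaB went from 0.01 to −0.35 without tumor library 32 and to −0.11 without spleen library 30, and to 0.30 without tumor library 28. Growth factor receptors went from 0.05 to −0.04 without tumor library 16 and to −0.03 without spleen library 30. Integrins and adhesion went from just below 0 to 0.09 without tumor library 28. Leaving out 1 library took the call from called named genes in 123 of 535 fits, 74 of these without spleen library 10, 14 or 26.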
